A study of Mus musculus with 6 samples.

Results

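The genes described here are 9 genes that neutrophils use, S100a8, S100a9, Csf3r, Retnlg, Ngp, Camp, Ltf, Mpo and Elane. They were chosen by gene symbol in the table of gene counts, and all 9 were found among its 52459 genes. RNA-Seq was performed on whole livers of 6 male mice, 3 of them given the guide RNA sgPrdx2 (mice 1.1, 1.3 and 3.2) and 3 the control guide RNA sgCtrl (mice 5.1, 7.1 and 7.2). Every mouse was an Alb-Cre/Cas9 F1 animal on the C57BL6J strain, so the controls carry Cre and Cas9 as well. Each received AAV8-U6-sgCtrl or AAV8-U6-sgPrdx2 intravenously at 4 to 5 weeks of age, and 3 weeks after that an intraperitoneal dose of 100 mg/kg diethylnitrosamine (DEN), which causes liver tumours. One week after DEN, CDAHFD, a high-fat feed that lacks choline and has a defined amino acid content, was started and kept for 6 months, and the labels give an age of 8 months. DEN and CDAHFD were therefore shared by both groups. The albumin promoter drives Cre, which switches Cas9 on in hepatocytes, so the guide acts in hepatocytes and not in the leukocytes of the same liver. The comparison asks how the RNA of neutrophil genes in the liver differed when the guide in hepatocytes was directed at Prdx2.

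Neutrophils are short-lived phagocytes made in the bone marrow, from where they enter blood and inflamed tissue. They carry their weapons in granules that are filled in sequence during maturation. Primary (azurophil) granules are filled at the promyelocyte stage and secondary (specific) granules at the following stages, so the RNAs of most granule proteins are high in marrow precursors and low in mature cells. S100a8, S100a9, Csf3r and Retnlg are in contrast transcribed in mature neutrophils. In the fatty and fibrotic liver, neutrophils are known as one of the infiltrating leukocyte populations.

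Read counts ranged from 37462102 to 56865293 per liver, and the counting resolution is such that 3 counts stand for 0.0555 to 0.0921 CPM (counts per 1000000 counts). CPM values are given after scaling the libraries by edgeR's TMM method. No liver was a copy of another (the lowest chi-square between a pair, over its degrees of freedom, was 34.8). Prdx2 itself was at 109, 117 and 132 CPM in sgCtrl livers and at 99.0, 112 and 149 CPM in sgPrdx2 livers (log2 fold change 0.01, edgeR's quasi-likelihood test, Benjamini-Hochberg adjusted p = 0.983), so the RNA gives no check of the guide labels. Of 17032 genes that passed a filter on low counts (at least 0.229 CPM, before TMM scaling, in at least 3 livers), 567 differed between the groups at an adjusted p under 0.05, which is 3.33%. Of all tested genes 1.79% were higher and 1.54% lower in sgPrdx2 livers, so 53.8% of the calls were higher. This share was 66.0% after scaling to 6 housekeeping genes and 6.34% after scaling to total counts alone, where the median over all genes of the log2 fold change moved from -0.02 to -0.39. Markers of other cells differed between the same groups. The summed level of 6 hepatocyte markers was 71158 to 76908 CPM in sgCtrl livers and 122683 to 167614 CPM in sgPrdx2 livers. All 6 had a log2 fold change above 0, and 4 were called higher at an adjusted p under 0.05. The summed level of 8 pan-leukocyte markers was 910 to 1077 CPM in sgCtrl livers and 577 to 681 CPM in sgPrdx2 livers. All 8 had a log2 fold change below 0, and 4 were called lower. In RNA of a whole tissue, fewer cells of a type and less RNA per cell cannot be told apart, and the part of these marker levels in the results below was not tested.

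The RNA of these neutrophil genes was scarce in all 6 livers. S100a8, S100a9 and Csf3r, the most abundant of the 9 genes, were at 2.95 to 16.8 CPM, and no other gene of the 9 exceeded 1.05 CPM in any liver. No member was called at an adjusted p under 0.05. Csf3r, the receptor for granulocyte colony-stimulating factor, was at 16.1 ± 0.823 CPM in sgCtrl livers and 12.1 ± 1.16 CPM in sgPrdx2 livers (SD, n = 3). The secondary granule genes Ngp, Camp and Ltf were each lower in every sgPrdx2 liver than in any sgCtrl liver, and Elane, a primary granule gene, was higher in every sgPrdx2 liver. S100a8, S100a9, Retnlg and Mpo overlapped between the groups.

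The filter on low counts kept 6 of the 9 genes, S100a8, S100a9, Csf3r, Retnlg, Ltf and Elane. Since it was applied before TMM scaling, values near the minimum can differ from the CPM given below. Ltf passed it only through the sgCtrl livers, all 3 of which were over the minimum while no sgPrdx2 liver was. Elane passed it through the 3 sgPrdx2 livers with 1 sgCtrl liver over the minimum. Ngp was over the minimum in 2 livers, Mpo in 1 and Camp in none, so these 3 genes were not tested. For these reasons a count over the tested genes is a description. None of the 6 was called by edgeR's quasi-likelihood test, and 3 (Csf3r, Ltf and Elane) had an unadjusted p under 0.05, as did 4241 of all 17032 tested genes. By DESeq2, none was called of the 4 genes that received an adjusted p, and 2 of the 9 had an unadjusted p under 0.05. Groups did not overlap for 3 of the 6 tested genes, lower in sgPrdx2 livers for Csf3r and Ltf and higher for Elane. Across all tested genes, 17.5% were lower without overlap and 16.7% higher without overlap. With the untested Ngp and Camp, both lower, the groups did not overlap for 5 of all 9. The shares do not cover genes with counts too low to be tested, so they are no measure for the 5 of 9.

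**Figure D1:**
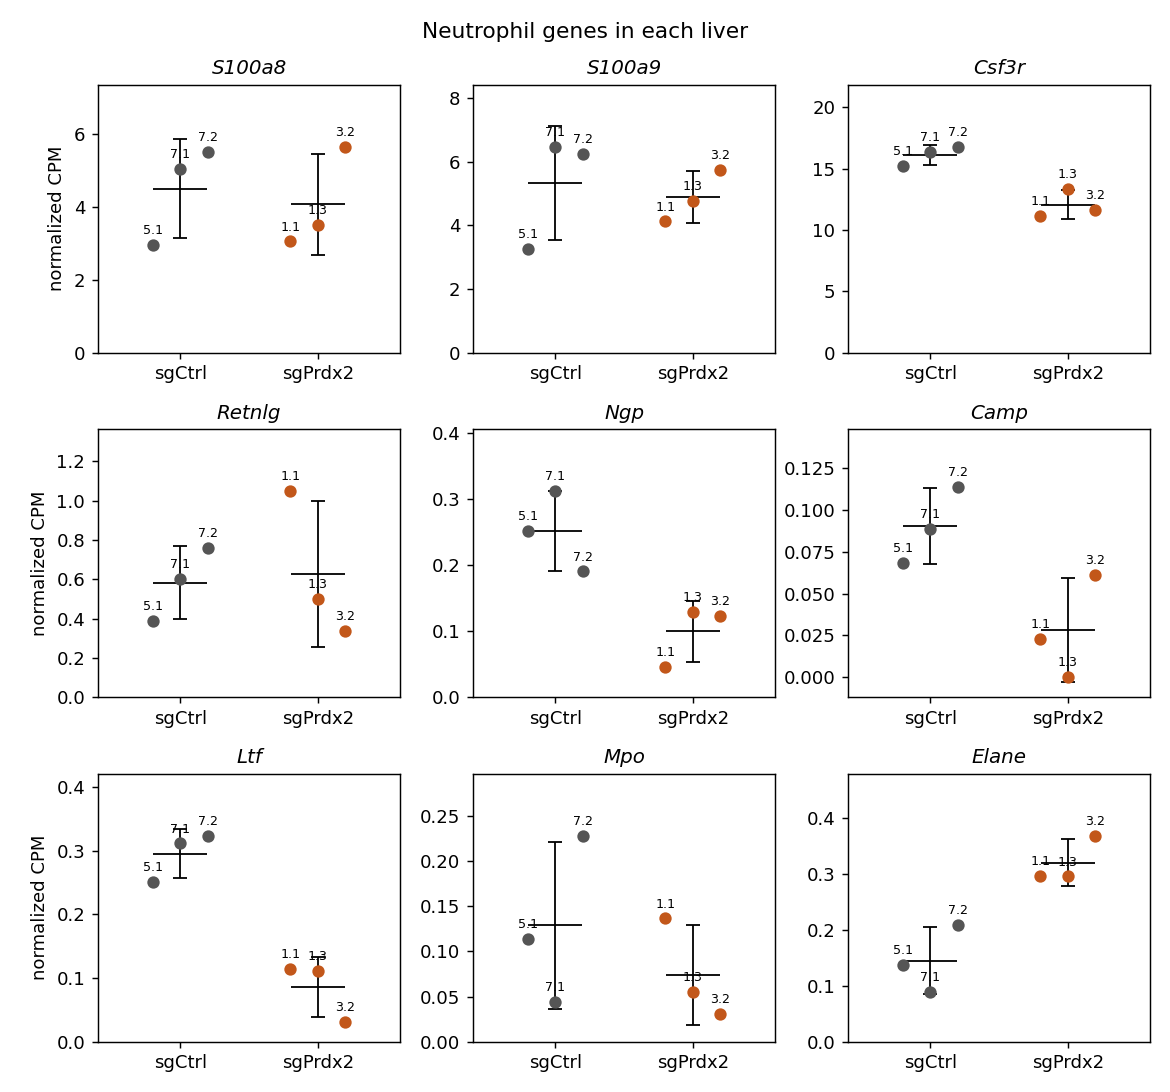
Level of each of the 9 neutrophil genes in every liver, in CPM after TMM scaling on linear axes that differ between panels. Points are livers, and the horizontal line with bars is the mean ± SD of the 3 livers of a group. Csf3r, Ngp, Camp and Ltf are lower in the 3 sgPrdx2 livers than in any sgCtrl liver, Elane is higher, and the other 4 genes overlap.

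Divided by exon length, the levels fell into 3 tiers. S100a9 was the highest at a mean of 9.78 CPM per kb over the 6 livers (range 6.26 to 12.4), followed by S100a8 at 6.17 CPM per kb (4.25 to 8.14) and Csf3r at 3.91 CPM per kb (3.10 to 4.65). The ranges of S100a9 and S100a8 overlapped, as did those of S100a8 and Csf3r. Retnlg formed a tier of its own at 1.02 CPM per kb (0.570 to 1.77), below every value of Csf3r and above every value of the genes that follow. Elane had a mean of 0.236 CPM per kb (0.0904 to 0.375), Ngp of 0.143 (0.0373 to 0.255), Camp of 0.0782 (0 to 0.151), Ltf of 0.0552 (0.00890 to 0.0937) and Mpo of 0.0297 (0.00897 to 0.0667). Each of these 5 overlapped its neighbours in the order. These 5 granule genes were therefore each below S100a8, S100a9, Csf3r and Retnlg in every liver. Prtn3, a further granule gene, was above Retnlg in sgPrdx2 livers 1.3 (1.04 against 0.842 CPM per kb) and 3.2 (2.64 against 0.570). In each of the other livers Prtn3 was below Retnlg. The 5 granule genes also rested on few reads. Their totals over the 6 livers were 62 counts for Elane, 54 for Ltf, 48 for Ngp, 29 for Mpo and 16 for Camp. Csf3r had 3880 counts, S100a9 1388 and S100a8 1152. Which cells made the RNA of S100a8, S100a9 and Csf3r was not tested.

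**Figure D2:**
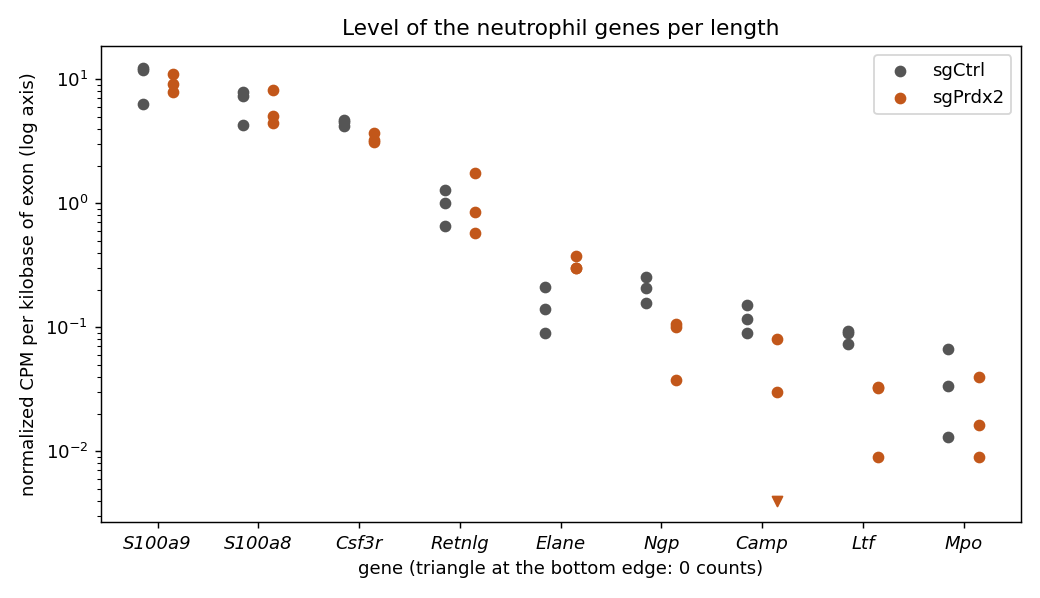
Level of each gene per kb of exon, in CPM per kb on a log axis, for each of the 6 livers, coloured by group, with a triangle at the lower edge for the Camp value of 0 and genes ordered by the mean over all livers. S100a9, S100a8 and Csf3r lie above Retnlg, and Retnlg lies above the 5 granule genes in every liver.

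The alarmins S100a8 and S100a9 form calprotectin, the calcium- and zinc-binding complex that makes up much of the neutrophil cytosol. Their genes lie next to each other on chromosome 3, S100a8 at chr3:90668978-90670035 on the plus strand and S100a9 at chr3:90692632-90695721 on the minus strand (GRCm38), 22596 bases apart. S100a8 was at 2.95, 5.05 and 5.50 CPM in sgCtrl livers 5.1, 7.1 and 7.2, and at 3.05, 3.49 and 5.65 CPM in sgPrdx2 livers 1.1, 1.3 and 3.2. The groups overlapped, with the lowest value in sgCtrl liver 5.1 and the highest in sgPrdx2 liver 3.2. The mean was 4.50 ± 1.36 against 4.07 ± 1.39 CPM, a log2 fold change of -0.15 (SE 0.31, 95% interval -0.87 to 0.57, adjusted p = 0.783, exact permutation p = 1).

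S100a9 was at 3.27, 6.47 and 6.24 CPM in sgCtrl livers and at 4.12, 4.77 and 5.74 CPM in sgPrdx2 livers, in the same order of mice. The 3 sgPrdx2 values all lay inside the range of the sgCtrl values. Its log2 fold change was -0.13 (SE 0.28, 95% interval -0.77 to 0.51, adjusted p = 0.794). Both intervals reach from below -0.7 to above 0.5, so a moderate difference in either direction was not detectable with these livers. The pair kept a similar ratio, with S100a9 at 1.11, 1.28 and 1.13 times S100a8 in sgCtrl livers and 1.35, 1.37 and 1.02 times in sgPrdx2 livers. Of the summed CPM of all 9 genes, the pair held 27.4% to 39.2% in sgCtrl livers and 35.8% to 47.5% in sgPrdx2 livers, which overlapped.

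Csf3r is the receptor through which granulocyte colony-stimulating factor drives the making and release of neutrophils, and it lies at chr4:126024550-126044440 on the plus strand. It was at 15.2, 16.4 and 16.8 CPM in sgCtrl livers and at 11.2, 13.4 and 11.6 CPM in sgPrdx2 livers. Every sgPrdx2 liver was below every sgCtrl liver. The log2 fold change was -0.42 (SE 0.13, 95% interval -0.72 to -0.12), with an adjusted p of 0.107 (unadjusted 0.0122) and the smallest exact permutation p that 3 livers against 3 allow, 0.1. Relative to Itgb2, the shared beta chain of leukocyte integrins, Csf3r stood at 7.47% to 9.30% in sgCtrl livers and at 12.7% to 14.2% in sgPrdx2 livers. Itgb2 itself fell by 1.06 on the log2 scale (adjusted p = 0.0313), the largest fall of the 8 pan-leukocyte markers. Ptprc (log2 fold change -0.87), Laptm5 (-0.76), Cd53 (-0.88) and Lcp1 (-0.61) also fell more than Csf3r. Coro1a (-0.31), Cd52 (-0.27) and Rac2 (-0.37) fell less than Csf3r, so the direction of such a ratio depends on the marker chosen. Of the 50-base stretches of the Csf3r exons, 10.7% also occur in other genes, so some of its reads could have been assigned to other genes or dropped.

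Retnlg, a resistin-like secreted protein of mature neutrophils, lies at chr16:48872621-48874496 on the plus strand. It was at 0.388, 0.601 and 0.761 CPM in sgCtrl livers and at 1.05, 0.499 and 0.338 CPM in sgPrdx2 livers. The highest and the lowest of the 6 values were both from sgPrdx2 livers. Its log2 fold change was 0.11 (SE 0.46, 95% interval -0.94 to 1.17, adjusted p = 0.893), and it was -0.24 after scaling to total counts alone, so that no direction can be given.

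The secondary granule genes Ltf, Ngp and Camp encode lactoferrin, which binds iron, neutrophilic granule protein, and the cathelicidin from which an antimicrobial peptide is cut. All 3 lie on chromosome 9, Camp at chr9:109847379-109849617 on the minus strand, Ngp at chr9:110419747-110423012 on the plus strand and Ltf at chr9:111019271-111042767 on the plus strand. Camp and Ngp are 570129 bases apart, and Ngp and Ltf 596258. Each of these 3 genes was lower without overlap at few counts, but none was called, and Ngp and Camp were not tested. Csf3r, also lower without overlap, is not among the sequences shown. The bases before the start of each of the 3 genes, picked on these values, are shown, with the start of Elane, which was higher, for contrast. They are from RefSeq (GRCm38.p6), limited to bases outside the GENCODE model of the gene, and capitals mark the letters TTGCNNAA or their reverse complement TTNNGCAA, the core of sites bound by C/EBP transcription factors, which act in granulopoiesis. The windows are Ltf at chr9:111019042-111019270 (plus), Ngp at chr9:110419558-110419746 (plus), Camp at chr9:109849618-109849706 (minus) and Elane at chr10:79886062-79886246 (plus).
Ltf: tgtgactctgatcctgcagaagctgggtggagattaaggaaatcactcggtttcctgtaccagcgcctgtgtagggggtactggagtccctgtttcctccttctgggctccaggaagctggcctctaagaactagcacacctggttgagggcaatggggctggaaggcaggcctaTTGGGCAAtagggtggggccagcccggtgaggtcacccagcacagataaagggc
Ngp: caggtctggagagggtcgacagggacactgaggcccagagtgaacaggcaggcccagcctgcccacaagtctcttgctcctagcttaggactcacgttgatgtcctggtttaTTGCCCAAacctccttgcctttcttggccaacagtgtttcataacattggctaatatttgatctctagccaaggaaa
Camp: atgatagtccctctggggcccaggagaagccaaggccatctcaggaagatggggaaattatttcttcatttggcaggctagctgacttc
Elane: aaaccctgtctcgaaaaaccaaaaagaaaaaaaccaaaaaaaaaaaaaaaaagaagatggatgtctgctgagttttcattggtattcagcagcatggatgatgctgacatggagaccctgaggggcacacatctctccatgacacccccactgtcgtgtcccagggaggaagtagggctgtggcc
In the 250 bases before the RefSeq start, searched on both strands, the letters were found in 4 of the 9 genes. They were in Ltf once (TTGGGCAA, first base 75 bases before the start), in Ngp at 2 places (TTGCCCAA at 138 bases and TTGGGCAA at 11 bases, the latter inside the GENCODE model and not shown), in S100a9 (TTGCTTAA at 236 bases) and in Retnlg (TTCTGCAA at 246 bases). Of 32851 promoter windows of the same length, 9.56% hold them. The windows of S100a8, Csf3r, Camp, Mpo and Elane hold no such letters. Ltf and Ngp, with the letters, and Camp, without them, were each lower in the sgPrdx2 livers.

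Ltf was at 0.251, 0.311 and 0.323 CPM in sgCtrl livers (11, 14 and 17 counts) and at 0.114, 0.111 and 0.0307 CPM in sgPrdx2 livers (5, 6 and 1 counts). The highest sgPrdx2 value was below the lowest sgCtrl value. The log2 fold change was -1.68 (SE 0.45, 95% interval -2.73 to -0.64), with an adjusted p of 0.0788 (unadjusted 0.00596, exact permutation p = 0.1).

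Ngp was at 0.251, 0.311 and 0.190 CPM in sgCtrl livers and at 0.0456, 0.129 and 0.123 CPM in sgPrdx2 livers. Its groups did not overlap either (exact permutation p = 0.1). Camp was at 0.0685, 0.0890 and 0.114 CPM in sgCtrl livers and at 0.0228, 0 and 0.0614 CPM in sgPrdx2 livers, again without overlap (exact permutation p = 0.1). With 3, 4 and 6 counts in sgCtrl livers and 1, 0 and 2 in sgPrdx2 livers, every Camp value of the sgPrdx2 group was under the floor of 3 counts. Pooled over livers, Ngp had 13 counts in sgPrdx2 against 35 in sgCtrl livers, a ratio of CPM-scaled levels of 0.402 (95% exact binomial interval 0.195 to 0.779). Camp had 3 against 13 counts, a ratio of 0.250 (0.0457 to 0.909). These intervals cover counting error only and not the spread between mice. When no filter was applied, the log2 fold changes were -1.32 for Ngp (adjusted p = 0.242) and -1.83 for Camp (adjusted p = 0.376).

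The summed level of the 3 secondary granule genes was 0.571, 0.712 and 0.628 CPM in sgCtrl livers and 0.182, 0.240 and 0.215 CPM in sgPrdx2 livers. Each of the latter was under the lowest sgCtrl value, and the ratio of the means was 0.334. For comparison, the ratio of the means was 0.911 for the alarmins and 0.628 for the pan-leukocyte markers. The difference between these ratios was not tested. In sgPrdx2 livers the sum rests on 5, 6 and 1 counts of Ltf, 2, 7 and 4 of Ngp and 1, 0 and 2 of Camp. These 3 are not all genes of secondary granules, and Lcn2, described below, had a log2 fold change of -0.73.

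The primary granule genes Mpo and Elane encode myeloperoxidase, which makes hypochlorous acid, and neutrophil elastase, a serine protease. Mpo, at chr11:87793581-87804413 on the plus strand, was at 0.114, 0.0445 and 0.228 CPM in sgCtrl livers and at 0.137, 0.0555 and 0.0307 CPM in sgPrdx2 livers. The groups overlapped (exact permutation p = 0.6), and 10 counts in sgPrdx2 against 19 in sgCtrl livers gave a ratio of 0.570 (0.237 to 1.29, counting error only). Its exons overlap Gm11505 on the opposite strand over 512 bases, and 9.46% of its 50-base stretches occur in other genes.

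Elane, at chr10:79886247-79888215 on the plus strand, was at 0.137, 0.0890 and 0.209 CPM in sgCtrl livers (6, 4 and 11 counts) and at 0.296, 0.296 and 0.369 CPM in sgPrdx2 livers (13, 16 and 12 counts). It was the one gene of the 9 that was higher in every sgPrdx2 liver. The log2 fold change was 1.09 (SE 0.40, 95% interval 0.17 to 2.02), with an adjusted p of 0.148 (unadjusted 0.0256, exact permutation p = 0.1). Its neighbour Prtn3, encoding proteinase 3 and ending 3072 bases away, was named after its values were seen. Prtn3 was at 1.01, 1.05 and 0.742 CPM in sgCtrl livers and at 1.05, 1.79 and 4.58 CPM in sgPrdx2 livers. For Prtn3 the log2 fold change was 1.39 (SE 0.51, adjusted p = 0.151), and 6.45% of its 50-base stretches are shared with the overlapping gene Plppr3. Without a filter, the log2 fold change of Mpo was -0.78 (SE 0.77, adjusted p = 0.630), so that no direction can be given for it. Both proteins are stored in the same granules, and the difference between Elane and Mpo was not tested.

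**Figure D3:**
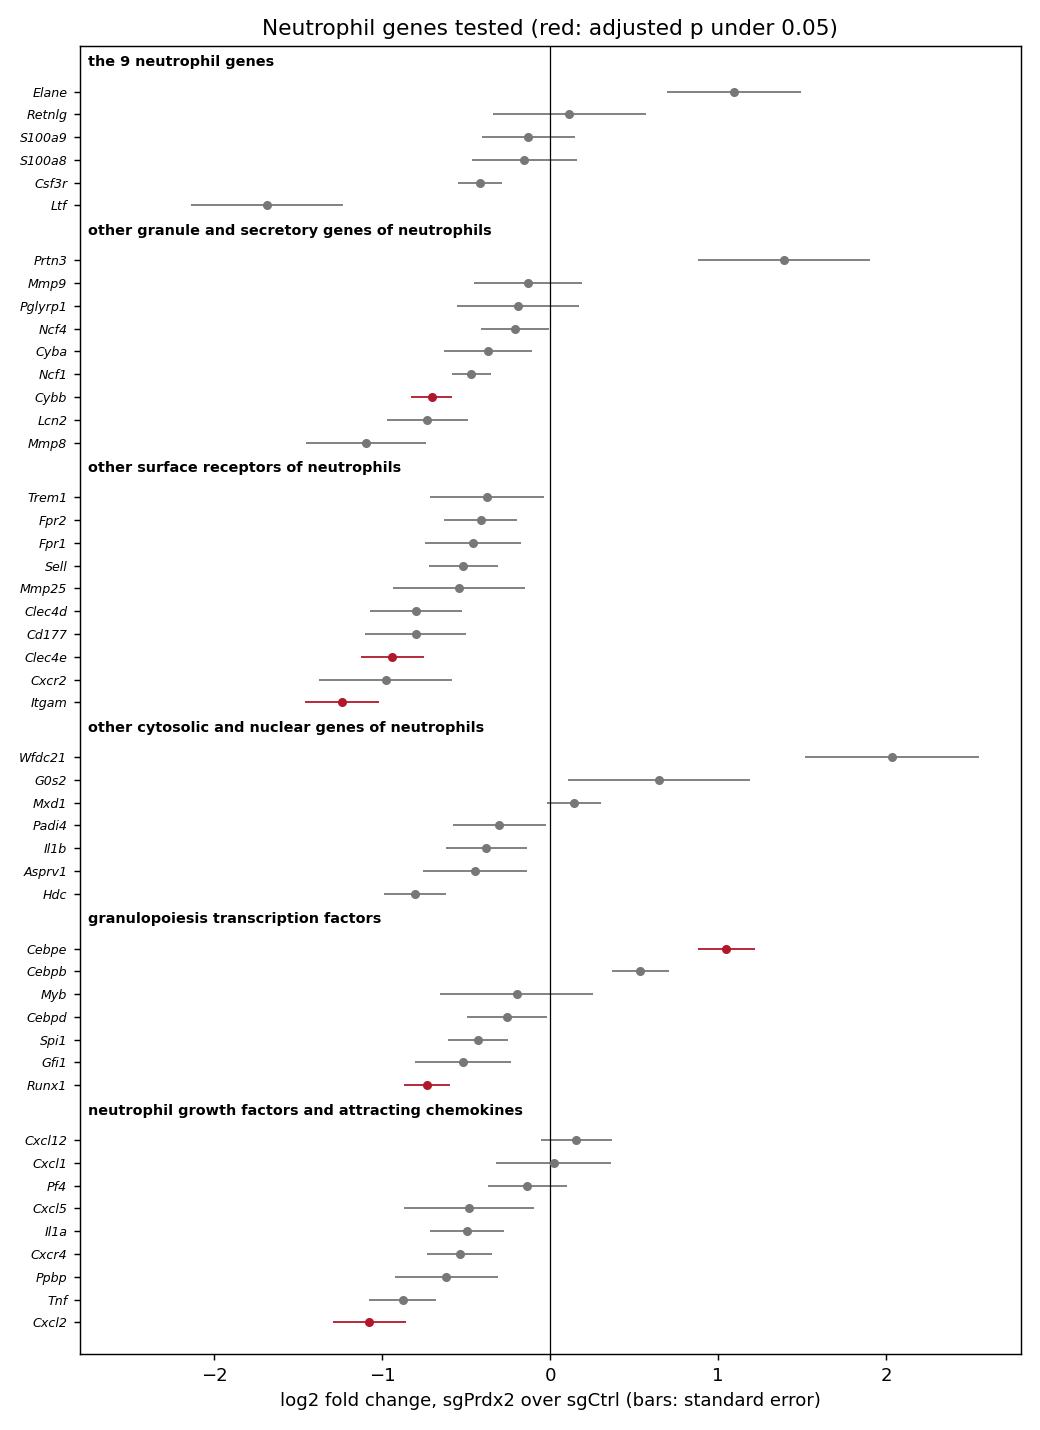
Log2 fold change (sgPrdx2 minus sgCtrl livers, edgeR) of the tested genes among the 9 neutrophil genes and in the 5 wider lists (42 of the 43 tested in the lists), with bars of 1 standard error and genes called at an adjusted p under 0.05 in red. No gene of the 9 is called, 5 of the plotted genes of the wider lists are called lower and Cebpe is called higher.

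The summed CPM of all 9 genes was 22.6, 29.4 and 30.4 in sgCtrl livers and 20.0, 22.7 and 24.0 in sgPrdx2 livers, so the groups overlapped. The means were 27.5 ± 4.20 and 22.3 ± 2.02 CPM (SD, n = 3), a ratio of 0.811. As a share of the summed pan-leukocyte markers, the 9 genes stood at 2.10%, 3.23% and 3.01% in sgCtrl livers and at 3.47%, 3.65% and 3.52% in sgPrdx2 livers, each of the latter above each of the former. This share depends on the markers summed, which fell unevenly, from a log2 fold change of -1.06 for Itgb2 to -0.27 for Cd52. The share against other markers was not tested. Csf3r and the alarmins make up nearly all of the summed CPM of the 9 genes, so the share says little of the granule genes.

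Other genes of neutrophils, in 5 lists of 57 genes, were compared in the same fit. Of the 43 tested, 1 was called higher and 6 lower, against 1.79% and 1.54% of all tested genes. DESeq2 called 15 of the 37 genes of these lists that received an adjusted p. Over all genes it called 2048, which is 7.15% of the 28631 with any count. The 28631 include genes without an adjusted p, so this share is lower than one on the same base as the 37. After scaling to total counts, edgeR called 19 of the 43, against 19.1% of all tested genes, with a median log2 fold change of -0.39 over all genes. Among 13 other granule and secretory genes, 10 were tested, of which 2 were called lower and 9 had a log2 fold change below 0 (median -0.42, against -0.02 over all genes). Cybb, a subunit of the NADPH oxidase that makes superoxide, fell from 147 ± 6.81 to 90.3 ± 4.41 CPM (log2 fold change -0.71, SE 0.12, adjusted p = 0.0394). It is made by macrophages as well. Lcn2, the siderophore-binding lipocalin of secondary granules that hepatocytes also secrete, was the most abundant of the list at 679 ± 102 against 409 ± 133 CPM, a log2 fold change of -0.73 that was not called (SE 0.24, adjusted p = 0.123). The 3 genes not tested had too few counts.

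Among 12 other surface receptors, all 10 tested had a log2 fold change below 0 (median -0.67) and 2 were called lower. Itgam, the alpha chain of the integrin Mac-1 on neutrophils, monocytes and macrophages, fell from 42.7 ± 3.23 to 18.0 ± 5.50 CPM (log2 fold change -1.24, SE 0.22, adjusted p = 0.0394). Its reads are uncertain, since 66.3% of its 50-base stretches also lie in the overlapping model Gm49368. Clec4e, the receptor Mincle, fell from 5.14 ± 0.657 to 2.68 ± 0.327 CPM (log2 fold change -0.94, SE 0.19, adjusted p = 0.0463). Clec4d, the related receptor and, with Itgam, the most abundant of the list, stood at a log2 fold change of -0.80 and was not called (adjusted p = 0.133). Ly6g, the surface protein by which mouse neutrophils are usually sorted, was named after its values were seen and had 0, 2 and 0 counts in sgCtrl livers and none in sgPrdx2 livers. The defining surface marker was thus at or under the floor in every liver, while S100a8, S100a9 and Csf3r had at least 129 counts in each.

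Of 12 cytosolic and nuclear genes of neutrophils, 7 were tested and none was called by edgeR (median log2 fold change -0.30, 3 above and 4 below 0), while 2 had an unadjusted p under 0.05 and DESeq2 called 2. The smallest p in the list belonged to Hdc, the enzyme that makes histamine, at 7.63 ± 1.32 against 4.36 ± 0.447 CPM (log2 fold change -0.80, SE 0.18, adjusted p = 0.0573). Wfdc21, a secreted protease-inhibitor-like protein, was at 38.7, 115 and 26.8 CPM in sgCtrl livers and 247 ± 62.0 CPM in sgPrdx2 livers (log2 fold change 2.04, SE 0.52, adjusted p = 0.0698). The other abundant gene, G0s2, an inhibitor of triglyceride lipase that is also made by hepatocytes, was at 133, 70.7 and 79.4 CPM in sgCtrl livers and at 66.8, 83.8 and 292 CPM in sgPrdx2 livers, and was not called (log2 fold change 0.65, adjusted p = 0.487). The groups overlapped, and its higher sgPrdx2 mean comes from liver 3.2 alone. BC100530, a stefin-like gene, had no count in any liver.

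All 7 transcription factors of granulopoiesis were tested, 1 called higher and 1 lower (median log2 fold change -0.26). Cebpe, which is needed for the late stages of granule filling and switches on secondary granule genes, was at 9.71, 11.8 and 10.6 CPM in sgCtrl livers and at 21.6, 18.3 and 26.8 CPM in sgPrdx2 livers. It rose in all 3, with a log2 fold change of 1.05 (SE 0.17, adjusted p = 0.0358). Per kb of exon, Cebpe had a mean of 13.3 CPM over the 6 livers, above S100a9 (9.78), the highest of the 9 genes. Which cells made the Cebpe RNA was not tested. Ltf, Ngp and Camp were lower in the same livers, and a link between these differences was not tested. Runx1, a factor of blood cell formation, fell from 10.6 ± 0.793 to 6.35 ± 0.332 CPM (log2 fold change -0.73, SE 0.14, adjusted p = 0.0417). The abundant factors Spi1 (log2 fold change -0.43, adjusted p = 0.191) and Cebpb (0.54, adjusted p = 0.111) were not called.

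Of 13 growth factors and chemokines that make or attract neutrophils, with a receptor, 9 were tested and 1 was called lower (median log2 fold change -0.49). Cxcl2, a ligand of the neutrophil receptor Cxcr2, fell from 2.74 ± 0.373 to 1.29 ± 0.153 CPM (log2 fold change -1.08, SE 0.22, adjusted p = 0.0463). Its call was lost after scaling to 6 housekeeping genes (adjusted p = 0.0515), and 5.84% of its 50-base stretches are shared with Cxcl3. Cxcl12 (log2 fold change 0.15, adjusted p = 0.675) and Cxcl1 (0.02, adjusted p = 0.975), the most abundant of the list, were not called. Il17a had no count in any liver. The 7 calls in these lists depend on which livers are included. Leaving out sgCtrl liver 5.1 or 7.2, or sgPrdx2 liver 1.1 or 1.3, gave 0 calls in the lists and 0 among all genes by edgeR, leaving out sgCtrl liver 7.1 gave 2 in the lists, and leaving out sgPrdx2 liver 3.2 gave 9, without Cxcl2 (adjusted p = 0.0579).

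Markers of other leukocytes were read in the same way. Pan-leukocyte genes Itgb2, Laptm5 (log2 fold change -0.76, adjusted p = 0.0491), Cd53 (-0.88, adjusted p = 0.0409) and Lcp1 (-0.61, adjusted p = 0.0486) fell. Of 10 macrophage markers all had a log2 fold change below 0 and Mpeg1 was called (-0.82, adjusted p = 0.0394), with a summed level of 3382 to 3737 CPM in sgCtrl and 2346 to 3253 CPM in sgPrdx2 livers. Of 6 T cell markers Cd8a was called lower (-0.84, adjusted p = 0.0486), at sums of 21.5 to 30.8 and 18.3 to 22.9 CPM. None of 6 monocyte markers was called by edgeR, 4 had an unadjusted p under 0.05 and DESeq2 called 2. Of these markers 5 had a log2 fold change below 0 (list median -0.76), among them Chil3 at -1.62 and F13a1 at -0.96. Their summed level, 971 to 1371 CPM in sgCtrl and 1014 to 1613 CPM in sgPrdx2 livers, is carried by Fn1, the sixth marker, which hepatocytes also make (1038 ± 232 against 1315 ± 333 CPM, log2 fold change 0.34, not called). None of 4 B cell markers was called by edgeR or DESeq2, 1 had an unadjusted p under 0.05, and their sums were 12.1 to 15.8 and 14.8 to 17.7 CPM. Of 8 erythroid markers 5 were tested, none was called by edgeR, 2 had an unadjusted p under 0.05 and DESeq2 called 1. Their sums were 156 to 200.4 and 189 to 257 CPM, but 4 of the 5 had a log2 fold change below 0 (list median -0.25), and the higher sum in sgPrdx2 livers comes from Alas2 (59.2 ± 25.0 against 118 ± 16.1 CPM, log2 fold change 0.997, not called by edgeR). Chil3, F13a1, Fn1 and Alas2 were named after their values were seen. Eosinophil markers, of which 1 was tested, summed to 2.42 to 3.06 and 1.97 to 2.60 CPM with Epx at 0 in every liver. Basophil and mast cell markers, none of them tested, summed to 0.111 to 0.525 and 0.0921 to 0.228 CPM with Fcer1a at 0 in every liver. Among hepatocyte markers, Alb (log2 fold change 0.97, adjusted p = 0.0472), Apoa1 (1.15, adjusted p = 0.0466), Ttr (1.35, adjusted p = 0.0394) and Serpina1a (1.25, adjusted p = 0.0409) rose.

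**Figure D4:**
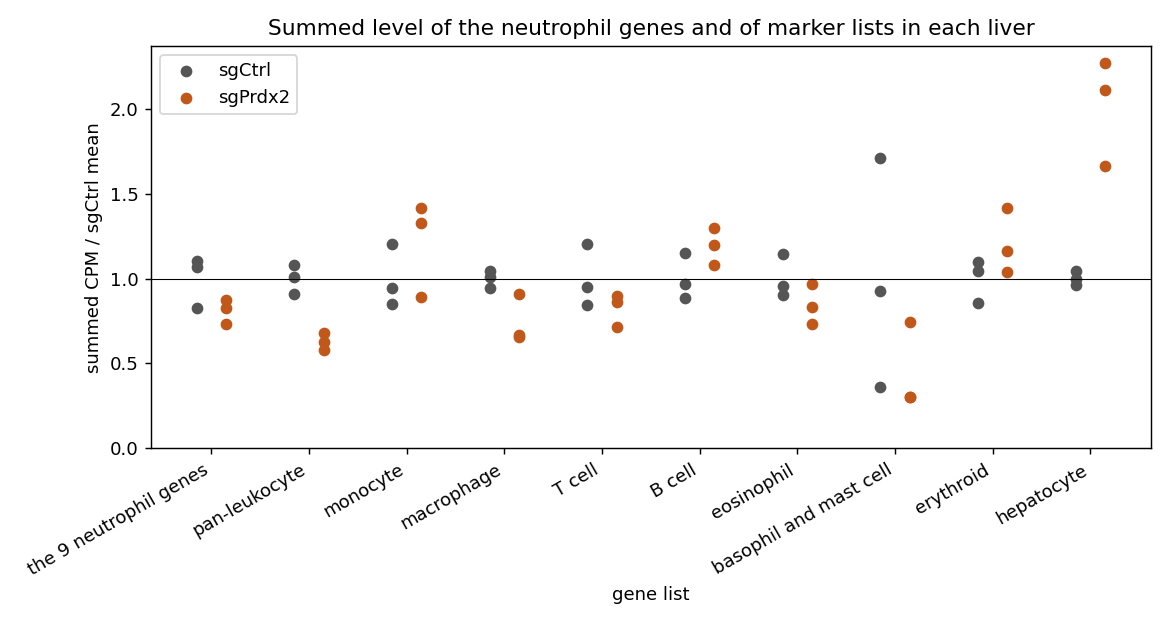
Summed CPM of the 9 neutrophil genes and of each marker list in each liver (points), divided by the mean of the 3 sgCtrl livers, on a linear axis. The pan-leukocyte and macrophage sums of the 3 sgPrdx2 livers lie below every sgCtrl liver, the hepatocyte sums lie above every sgCtrl liver, and the sums of the 9 neutrophil genes overlap.

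The tested genes whose pattern over the 6 livers was nearest to a member were found by the root mean square difference of log2 CPM, each gene centred on its own mean. Nearest to S100a8 were Ccnb1 (0.0867), 4930509E16Rik (0.0918) and Hist2h3c2 (0.0941), with S100a9 at 0.156 and 26 genes nearer than it. Nearest to S100a9 were Acsm2 (0.0690), Gm31805 (0.0847) and Aurka (0.0868), with 24 genes nearer than S100a8. Ccnb1 and Aurka act in mitosis, and the alarmin pair was thus not each other's closest pattern. Nearest to Csf3r were Mob3a (0.0431), Skp2 (0.0479) and Tax1bp3 (0.0487), while the closest member, S100a9 at 0.358, had 9100 genes nearer. The measure depends on the size of the variation, and a gene without any variation would stand at 0.228 from Csf3r. That count therefore does not show whether Csf3r and S100a9 share a pattern. Nearest to Retnlg were Bmp10 (0.123), Gm12435 (0.163) and Cbln3 (0.175). Nearest to Ltf were Gm45457 (0.154), Thbs1 (0.168) and G6pd2 (0.169). Nearest to Elane were Gm6543 (0.117), Gm5638 (0.125) and Gm13532 (0.127). The likeness spans 6 livers that share their group difference, and for Ltf and Elane it rests on few counts.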

How the data were processed

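RNA-Seq libraries of 6 mouse livers were analysed, grouped by the sample labels. The authors deposited raw counts per gene (52459 genes, whole numbers, no normalization). The submitters' processing notes name HISAT2, HTSeq, DESeq2 and GRCm38. Annotation and strandedness are not given in the sources used here. The authors' own DESeq2 table (means, fold changes, p-values) was not used, and the other measurements of the study were not analysed here. In edgeR 4.0.16 (R 4.3.3), genes were filtered by filterByExpr (minimum count 10), scaled by TMM and compared by the quasi-likelihood test in a fit of the 6 livers by group alone. A gene was called where its p, adjusted by Benjamini-Hochberg over the 17032 tested genes, was under 0.05. Between mice, the biological coefficient of variation was 0.213. Each SE was taken as the size of the log2 fold change over the root of its F statistic. Permutation tests were exact and two-sided, and the smallest p that 3 livers against 3 allow is 0.1. The livers are separate mice, so p-values measure the spread between mice. Depth was 37462102 to 56865293 counts per liver. Likeness used log2 CPM with a prior count of 2. Gene locations, exon lengths and shared 50-base stretches are from GENCODE M21 (GRCm38), which need not be the annotation the authors used, and promoters are from RefSeq (GRCm38.p6). The fits were tested on simulated data in which only genes of higher counts were changed, so that test does not reach genes as scarce as the granule genes. The members, gene lists and tests were chosen with earlier results of these data known. Named were Prdx2, all 9 members, and of each wider list the called genes, the 2 tested genes with the highest mean CPM, the tested gene with the smallest p and genes at 0 in every liver. Of the marker lists, called genes and genes at 0 were named, and for each tested member the 3 nearest genes. The result on 1 called gene of the wider lists is not reported here, although it is counted. Ahsp, of the erythroid list, was not matched in the table. The alternatives were RLE, upper-quartile, total-count and housekeeping scaling, omitting the filter or asking for 10 counts in every liver, DESeq2 1.42.0, robust dispersion, and leaving out each liver. They were extended to the wider lists after seeing the data.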

Additional observations from a re-analysis of the deposited data

How the results depend on the processing

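No member was called under any alternative other than scaling to total counts, where 2 were, Csf3r (log2 fold change -0.78, adjusted p = 0.0234) and Ltf (-2.03, adjusted p = 0.0294). Ltf passed the filter only through the sgCtrl livers, where it was higher, so its call is a description. With total-count scaling, 19.1% of all genes (3247) and 19 genes of the wider neutrophil lists were called. Relative to the median of all genes, Csf3r then stood at -0.40 and Ltf at -1.64. The log2 fold change of Retnlg turned from 0.11 to -0.24. The log2 ratio of the summed CPM moved to -0.67 for the 9 genes (from -0.30), to -1.05 for pan-leukocyte (from -0.67), -0.82 for macrophage (-0.44), -0.64 for T cell (-0.27), -0.62 for eosinophil (-0.24) and 0.63 for hepatocyte markers (0.999). It turned sign for monocyte (0.26 to -0.11), B cell (0.26 to -0.12) and erythroid markers (0.26 to -0.11). Against 567 genes (3.33%), 1128 were called without a filter (3.94%) and 2048 by DESeq2 (7.15%), both as shares of the 28631 genes with any count. DESeq2 called 15 genes of the wider lists against 7. Leaving out each liver in turn gave 0 to 619 called genes, 0 to 9 of the wider lists and 0 members. It gave 394 without sgCtrl liver 7.1 (2 of the wider lists), 619 without sgPrdx2 liver 3.2 and 0 without any of the other 4, with 3114 to 4436 genes at an unadjusted p under 0.05. The log2 fold changes then ranged from -0.45 to 0.018 for S100a8, from -0.38 to 0.032 for S100a9, from -0.48 to -0.37 for Csf3r, from -0.46 to 0.40 for Retnlg, from -1.89 to -1.37 for Ltf and from 0.85 to 1.47 for Elane. S100a8, S100a9 and Retnlg thus changed sign with 1 liver left out, S100a8 without 7.2 (0.018) or 1.1 (0.015), S100a9 without 7.1 (0.032) or 7.2 (0.00076), and Retnlg without 5.1 (-0.10) or 1.1. Cxcl2 lost its call with housekeeping scaling (adjusted p = 0.0515) and with any 1 liver left out. Its adjusted p then ranged from 0.0579 without sgPrdx2 liver 3.2 to 0.165 without sgCtrl liver 7.2. Apart from total-count scaling for Retnlg, each scaling and filter kept the sign of the members it tested. Ltf and Elane have no value with at least 10 counts in every liver and no adjusted p from DESeq2. Depth limits Ngp, Camp, Ltf, Mpo and Elane, with 16 to 62 counts over all livers. No paired analysis was possible because the groups share no replicate number.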
